A study of Mus musculus with 5 samples.

Results

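The 9 genes described here act on the extracellular matrix: the metalloproteinases Mmp2, Mmp3, Mmp12, Mmp13 and Mmp14, the tissue inhibitors Timp1, Timp2 and Timp3, and the lysyl oxidase Lox. They were chosen by symbol from the feature lists, and all 9 were found once in each of the 5 libraries, among 32285 listed features in the T cell libraries and 54987 in the whole-tumor libraries. Cells came from 4T1 tumors, a mouse line that models triple-negative breast cancer, implanted into the mammary fat pads of female BALB/c animals labelled as 12 weeks old. Doxorubicin (DOX) was given to the sensitive and resistant groups as 3 intravenous doses of 5 mg/kg, 3 days apart, and the control group received saline. Sensitive and resistant tumors were told apart by their growth under DOX. There was 1 droplet single-cell RNA library for each of 5 groups: T cell sensitive, T cell resistant, tumor control, tumor sensitive and tumor resistant. T cells of several tumors were pooled in each T cell library after magnetic depletion of other immune cells and of the CD90.1-marked cancer cells, so the fibroblasts, cancer cells and myeloid cells in them are what the depletion left. The whole-tumor library titled resistant carries a source field that names a sensitive tumor, while its field for DOX sensitivity reads resistant, and it is called the resistant-labelled library. With 1 library per group no difference has a replicate check, and no test was possible.

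Matrix metalloproteinases are zinc-dependent endopeptidases that cut collagens and other matrix proteins, and most are made as inactive proenzymes. Mmp14 is anchored in the membrane and, with Timp2, activates pro-Mmp2, a gelatinase that degrades denatured collagen and basement membrane collagen. Mmp3 is a stromelysin with broad substrates, Mmp13 a collagenase of fibrillar collagen, and Mmp12 the macrophage elastase. Timp proteins block the active site of these enzymes, and Timp3 is bound to the matrix. Lox crosslinks collagen and elastin and so stiffens the matrix that the proteinases open.

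The T cell libraries held 31690845 (sensitive) and 35908799 (resistant) unique molecular identifiers (UMIs), and the whole-tumor libraries 537293 to 1731940. After filters 3459 and 3165 cells remained in the T cell libraries and 263 to 488 in the whole-tumor libraries. The T cell numbers are 87.6% of the sensitive and 51.7% of the resistant barcodes. The mitochondrial limit took the sensitive library from 3683 to 3560 barcodes and the resistant from 4868 to 3250. Before the filters the median mitochondrial share was 2.47% for T cell sensitive and 8.95% for T cell resistant. These libraries shared 31 cell barcodes, 0.785% of the smaller. A cell was placed in a lineage gate when at least 3 of the 8 markers of that lineage had a UMI and the next lineage had at least 2 fewer. In the sensitive and resistant T cell libraries this gave 812 and 598 fibroblasts, 100 and 130 cancer cells, 185 and 156 macrophages, 143 and 171 neutrophils, and 2002 and 1900 T or natural killer (T/NK) cells. Fibroblast-gated cells had a median of 8 of the 8 fibroblast markers in both libraries, cancer-gated cells 7 of their 8, macrophage-gated cells 7 (sensitive) and 6 (resistant), and neutrophil-gated cells 7. The whole-tumor libraries held few stromal cells: 7 fibroblasts in control, 0 in the sensitive-labelled and 5 in the resistant-labelled library.

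Among the fibroblast, cancer, macrophage and neutrophil gates, 7 members had their highest level in fibroblasts in both T cell libraries and 2, Mmp12 and Mmp13, had it in macrophages. A level is given as CPM, the summed UMIs of the gene per 1000000 UMIs of the gate's cells, with an exact Poisson 95% interval that covers counting error only. These libraries read the ends of transcripts, so levels are compared between gates and not between genes. Mmp2 stood at 1726 CPM in sensitive and 1531 CPM in resistant fibroblasts, and at no more than 12.3 CPM in any of the cancer, macrophage, neutrophil or T/NK gates. Lox showed the same separation, with 888 and 929.8 CPM in fibroblasts and at most 5.58 CPM in those other gates. Timp3 was measured at 918 CPM in sensitive and 1034 CPM in resistant fibroblasts and at most 13.9 CPM in those same gates. The few endothelial-gated cells also held Timp3, at 1672 CPM in 6 sensitive and 402 CPM in 7 resistant cells. Of all UMIs of a member in kept cells, fibroblast-gated cells held 97.2% (sensitive) and 95.8% (resistant) for Mmp2, 97.7% and 96.6% for Lox, and 96.1% and 94.4% for Timp3.

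The other fibroblast members were also present in a second lineage. Mmp3 reached 1187 and 792 CPM in sensitive and resistant fibroblasts, and 44.4 and 66.3 CPM in cancer cells, where 25 of 100 and 29 of 130 cells had a UMI. Timp1 reached 4339 and 3397 CPM in fibroblasts and 259 and 214 CPM in cancer cells. Mmp14 stood at 654 and 522 CPM in fibroblasts. It followed at 233 and 235 CPM in macrophages and at 212 and 191 CPM in cancer cells, a pair of gates whose intervals overlapped in the sensitive library (213 to 255 and 194 to 231) but not in the resistant (214 to 258 and 175 to 208). Timp2 was also present in all 3 lineages, at 743 and 807 CPM in fibroblasts, 397 and 171 CPM in macrophages, and 164 and 163 CPM in cancer cells. In the resistant library the macrophage and cancer intervals of Timp2 overlapped (153 to 191 and 148 to 178). The few endothelial-gated cells also held Mmp14, at 222 CPM (134 to 347) in 6 sensitive and 475 CPM (367 to 606) in 7 resistant cells.

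**Figure D1:**
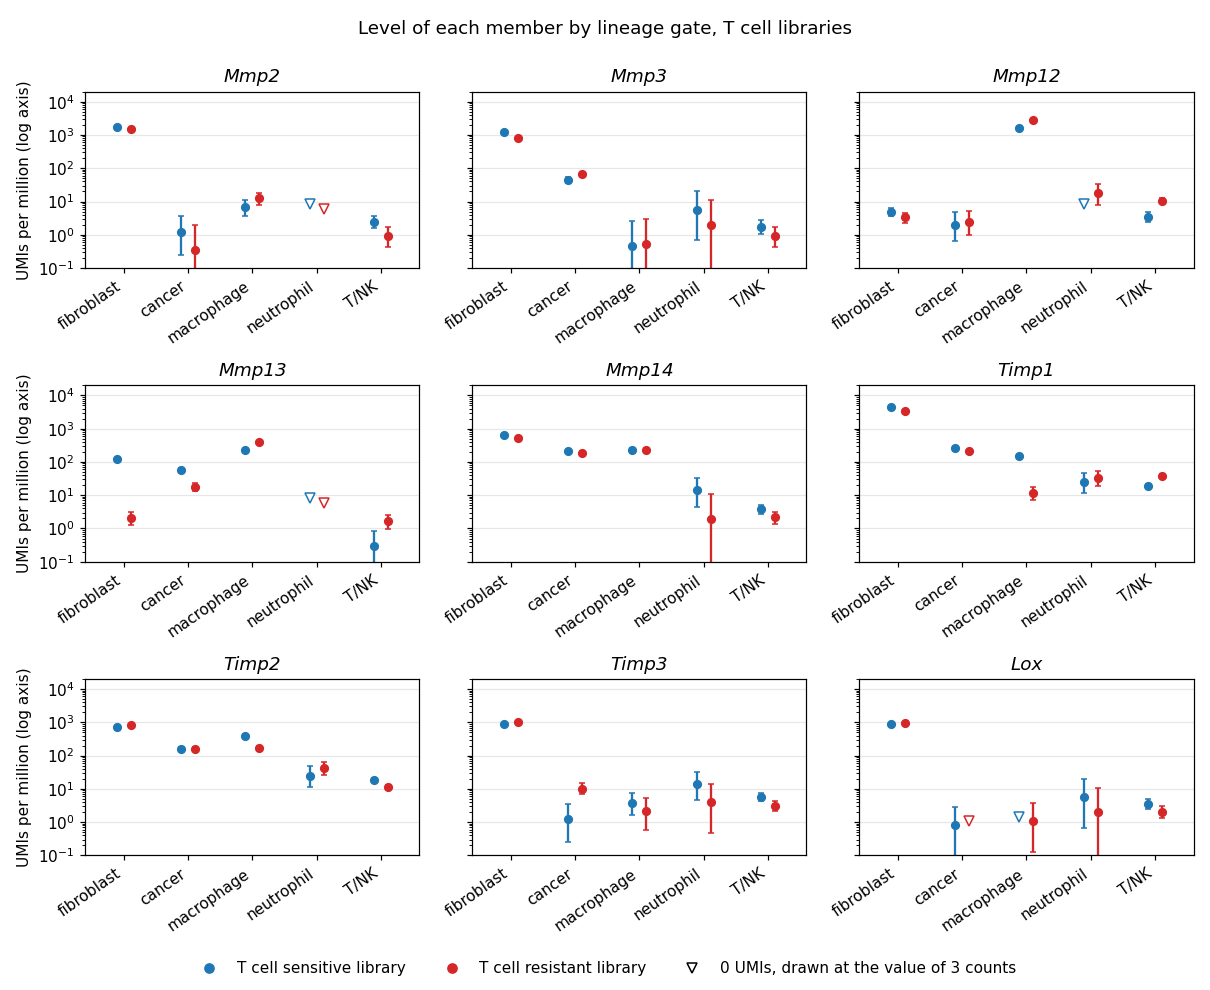
Level of each of the 9 members (CPM, log axis) in 5 lineage gates of the T cell sensitive (blue) and T cell resistant (red) libraries. Points are 1 library each, bars are exact Poisson 95% intervals, and open triangles stand for 0 UMIs drawn at the value of 3 counts. Mmp2, Timp3 and Lox fall away from fibroblasts to the other 4 gates shown, and Mmp12 peaks in macrophages.

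Neutrophils held few UMIs of any member, at most 22. No Mmp2 or Mmp13 UMI was found in 143 sensitive and 171 resistant neutrophils, which at 3 counts allows up to 8.37 and 5.89 CPM. The largest neutrophil value in these libraries was that of Timp2 in the resistant library, 43.2 CPM from 22 UMIs. Neutrophils were also shallow, with a median of 2197 (sensitive) and 2499 (resistant) UMIs against 13206.5 and 13656 in fibroblasts.

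Shares of cells with a UMI were counted after each cell was thinned to 1000 UMIs, and are given for fibroblasts beside T/NK cells. Mmp2 was seen in 76.8% of sensitive and 74.4% of resistant fibroblasts, against 0.201% and 0.105% of T/NK cells, which should lack it. Timp1 was seen in 53.7% and 54.9% of fibroblasts against 1.76% and 0.58% of T/NK cells. Timp2 gave 54.6% and 59.1% against 1.91% and 0.844%, and Mmp3 33.8% and 34.2% against 0.101% and 0.158%. Without thinning the T/NK shares rose to at most 7.49%, for Timp2 in the sensitive library, at a median depth of 4005.5 UMIs.

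The other members' positions come first (GRCm38, GENCODE vM21). Mmp2 lies at chr8:92827291-92853420, Mmp14 at chr14:54431612-54445364, Timp3 at chr10:86300372-86349506 and Timp1 at chrX:20870166-20874735 on the plus strand, and Timp2 at chr11:118301069-118355740 and Lox at chr18:52516067-52529867 on the minus strand.

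Mmp13, Mmp12 and Mmp3 lie near each other on chromosome 9, within 183 kb on the plus strand. Mmp13 spans chr9:7272514-7283331, Mmp12 chr9:7344381-7369499 and Mmp3 chr9:7445822-7455975. Their lead gates differed, with Mmp3 in fibroblasts and its neighbours in macrophages. Mmp12 stood at 1615 and 2726 CPM in sensitive and resistant macrophages, 331-fold and 154-fold above the next of the 4 gates. The 7 endothelial-gated cells of the resistant library gave 51.2 CPM of Mmp12 from 7 UMIs. Mmp13 stood at 225 and 387 CPM in macrophages. In the resistant library the next gate was cancer at 17.7 CPM, while in the sensitive library it was the fibroblast gate at 125 CPM.

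Promoter sequences were taken from RefSeq (GRCm38.p6), which matched 7 of the 9 members, and are shown for the chromosome 9 neighbours, whose lead gates differ, and for Timp1, whose level in macrophages differed most between the T cell libraries. Each is the 250 bases before the start that RefSeq annotates, which for Mmp12 (1 of its 2 entries, the nearer to the GENCODE start) lies inside the GENCODE gene, plus strand, 5′ to 3′, at chr9:7272264-7272513, chr9:7344147-7344396, chr9:7445572-7445821 and chrX:20869916-20870165. Capitals mark the AP-1 letters TGAGTCA or their reverse complement TGACTCA, the ETS letters AGGAAG or CTTCCT, and the TATA letters TATAAA (gene strand only).
Mmp13: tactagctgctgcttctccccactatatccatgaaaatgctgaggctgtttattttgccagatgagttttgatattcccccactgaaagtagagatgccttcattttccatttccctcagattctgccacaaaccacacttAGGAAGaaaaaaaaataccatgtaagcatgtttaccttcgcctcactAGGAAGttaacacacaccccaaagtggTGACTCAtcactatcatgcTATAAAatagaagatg
Mmp12: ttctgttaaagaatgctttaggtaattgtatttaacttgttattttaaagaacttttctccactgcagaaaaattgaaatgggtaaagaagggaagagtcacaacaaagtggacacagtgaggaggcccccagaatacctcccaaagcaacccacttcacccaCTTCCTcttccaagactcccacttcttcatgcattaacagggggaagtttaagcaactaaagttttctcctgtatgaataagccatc
Mmp3: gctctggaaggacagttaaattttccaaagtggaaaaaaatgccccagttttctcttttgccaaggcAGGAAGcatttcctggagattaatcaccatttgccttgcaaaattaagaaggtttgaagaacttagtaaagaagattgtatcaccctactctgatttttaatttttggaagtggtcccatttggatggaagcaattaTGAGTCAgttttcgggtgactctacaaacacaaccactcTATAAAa
Timp1: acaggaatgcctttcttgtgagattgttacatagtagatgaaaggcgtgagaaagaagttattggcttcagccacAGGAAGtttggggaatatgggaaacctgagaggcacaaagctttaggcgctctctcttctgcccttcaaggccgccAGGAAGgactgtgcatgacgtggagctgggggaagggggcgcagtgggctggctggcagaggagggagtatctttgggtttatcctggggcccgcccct
AP-1, the Fos and Jun dimer, and ETS factors are textbook regulators of collagenase and stromelysin genes. The AP-1 letters occurred in the Mmp13 window, starting 35 bases before the start, and in the Mmp3 window, 46 bases before it, and were not in the Mmp12 and Timp1 windows. Of 32851 RefSeq promoter windows of this length, 4.46% held them. TATAAA was found in the Mmp13 and Mmp3 windows and in 7.59% of all windows. The ETS letters were found in all 4 printed windows and in 29.5% of all windows. A match is a description of letters and not of a bound site.

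Between the T cell libraries, 1 of 9 members was past 2-fold higher in sensitive than in resistant fibroblasts (Mmp13) and 0 were past 2-fold lower. Of 11200 genes with at least 50 UMIs in this gate, 3.05% were past 2-fold higher and 1.04% past 2-fold lower, and the median ratio was 1.06. Among the proteinases the ratio was 1.499 for Mmp3 (1.46 to 1.54), 1.25 for Mmp14 (1.21 to 1.30) and 1.13 for Mmp2 (1.10 to 1.15). Timp1 had a ratio of 1.28 (1.26 to 1.29). The brackets are exact conditional binomial 95% intervals of the counting error. Timp2, at 0.921 (0.894 to 0.948), Timp3, at 0.888 (0.865 to 0.911), and Lox, at 0.955 (0.929 to 0.981), were slightly lower in the sensitive library. The median over the 9 members was 1.25. Mmp12 had only 64 and 34 UMIs in fibroblasts, 1.46 (0.952 to 2.29), and 52 of the 64 lay in 1 cell. Without the cell with most UMIs in each library it was 0.406.

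**Figure D2:**
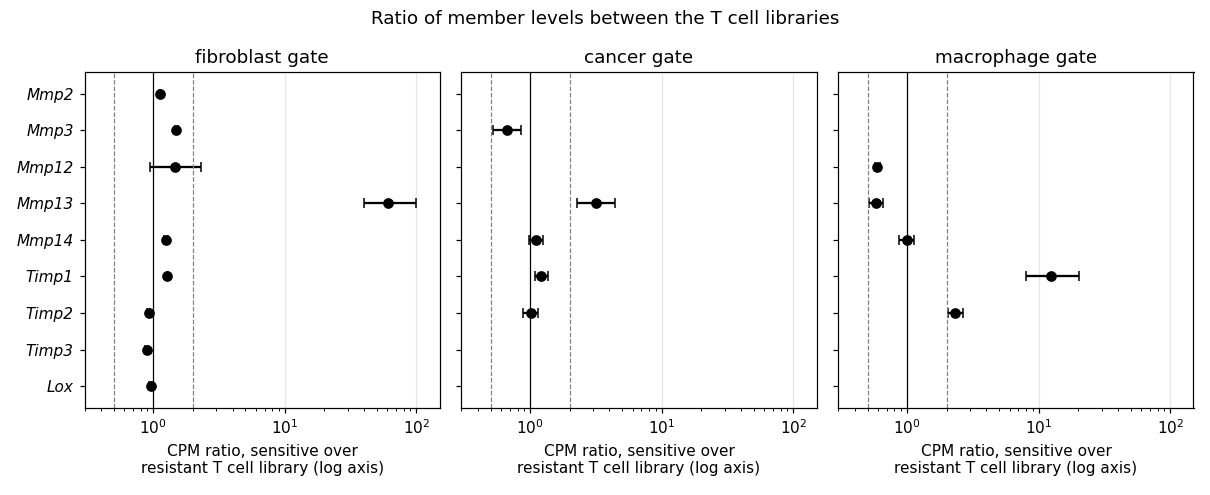
Ratio of CPM, sensitive over resistant T cell library (log axis), for members with at least 50 UMIs in the gate. Points are ratios of 1 library over 1 library, bars are exact conditional binomial 95% intervals, the solid line is 1 and dashed lines are 2-fold. Mmp13 in fibroblasts (60.8) and Timp1 in macrophages (12.4) lie farthest from 1.

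Mmp13 carried the largest fibroblast difference, and it rested on few cells. It stood at 125 CPM (1640 UMIs) in the sensitive and 2.06 CPM (21 UMIs) in the resistant library. The ratio was 60.8 (39.6 to 98.4). A UMI was found in 28 of 812 sensitive fibroblasts (3.45%) and 3 of 598 resistant fibroblasts (0.502%). One sensitive cell held 711 UMIs, 43.4% of the total, and 9 cells with at least 10 UMIs held 96.5%. In the resistant library 19 of the 21 UMIs lay in 1 cell. Without the 5 cells with most UMIs in each library, 144 UMIs were left in the sensitive library and 0 in the resistant.

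The cells with Mmp13 were described further within the fibroblast gate, which fixes that their fibroblast markers lead. In the sensitive library they had a median of 1 macrophage marker and 0 cancer markers, and the fibroblasts without Mmp13 had a median of 0 macrophage markers. They were deeper, with a median of 21130 UMIs against 12893.5. With putative doublets kept the ratio fell to 8.80, with no mitochondrial limit it was 44.9, and it was above 1 in all 8 alternatives. The median mitochondrial share of fibroblasts was 1.84% (sensitive) and 3.18% (resistant). Macrophage markers summed to 103 CPM in sensitive and 81.2 CPM in resistant fibroblasts, with 0 of 8 markers at 0 in either, and their part in the Mmp13 result was not tested.

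**Figure D3:**
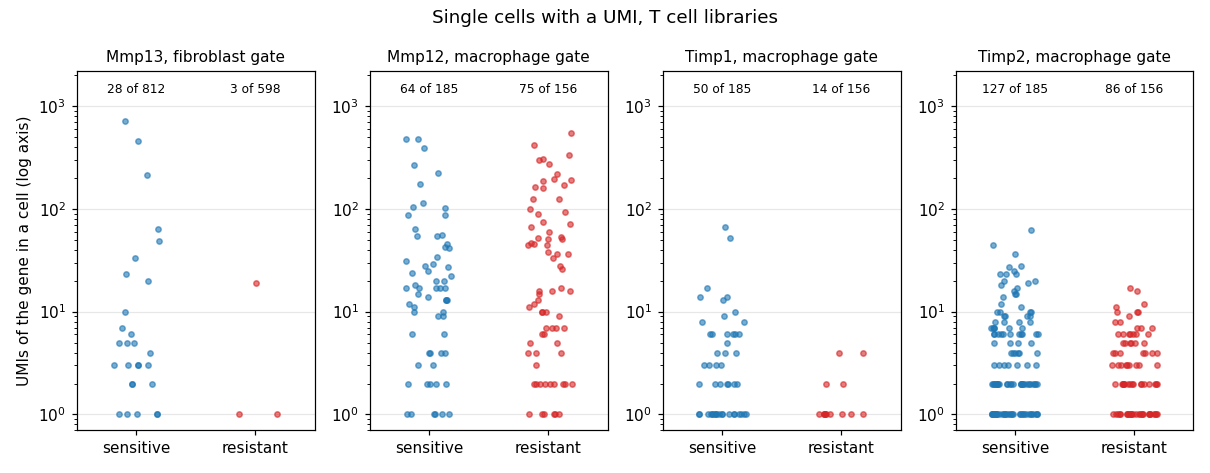
UMIs per cell (log axis) for Mmp13 in fibroblasts and for Mmp12, Timp1 and Timp2 in macrophages of the T cell libraries. Each point is 1 cell with a UMI, spread sideways at random, and the text above gives cells with a UMI of all gated cells. Mmp13 reaches 711 UMIs in 1 sensitive fibroblast, and Timp1 never exceeds 4 UMIs in a resistant macrophage.

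Fibroblasts were split into contractile cells, with at least 2 UMIs of both Acta2 and Tagln (smooth muscle actin and transgelin), Pi16+ cells, with a UMI of Pi16 (a marker of adventitial fibroblasts) and not contractile, and the others. Contractile cells made up 11.9% of sensitive and 12.4% of resistant fibroblasts, Pi16+ cells 79.7% and 86.0%, and the others 8.37% and 1.67%, the last only 10 cells in the resistant library. Contractile cells were also deeper, at a median of 29778 and 33789 UMIs against 12626 and 12699 in Pi16+ cells.

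Timp1 and Timp3 were higher in the contractile state, Timp2 and Mmp2 in the Pi16+ state. Timp1 stood at 9055 and 9048 CPM in contractile cells of the sensitive and resistant libraries, against 2639.9 and 1382 CPM in Pi16+ cells. Timp3 was likewise higher in contractile cells, at 1846 and 2675 CPM against 475 and 451 CPM. Timp2 went the other way, with 414 and 439.6 CPM in contractile and 892 and 944 CPM in Pi16+ cells. Mmp2 shared that direction, at 839 and 675 CPM in contractile and 2109 and 1842 CPM in Pi16+ cells, so Mmp2 and Timp2 were both higher in the Pi16+ state in both libraries. Mmp14 was moderately higher in contractile cells (749 and 663 CPM against 595 and 468 CPM), as was Lox (1100.15 and 1262 CPM against 758 and 818 CPM).

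**Figure D4:**
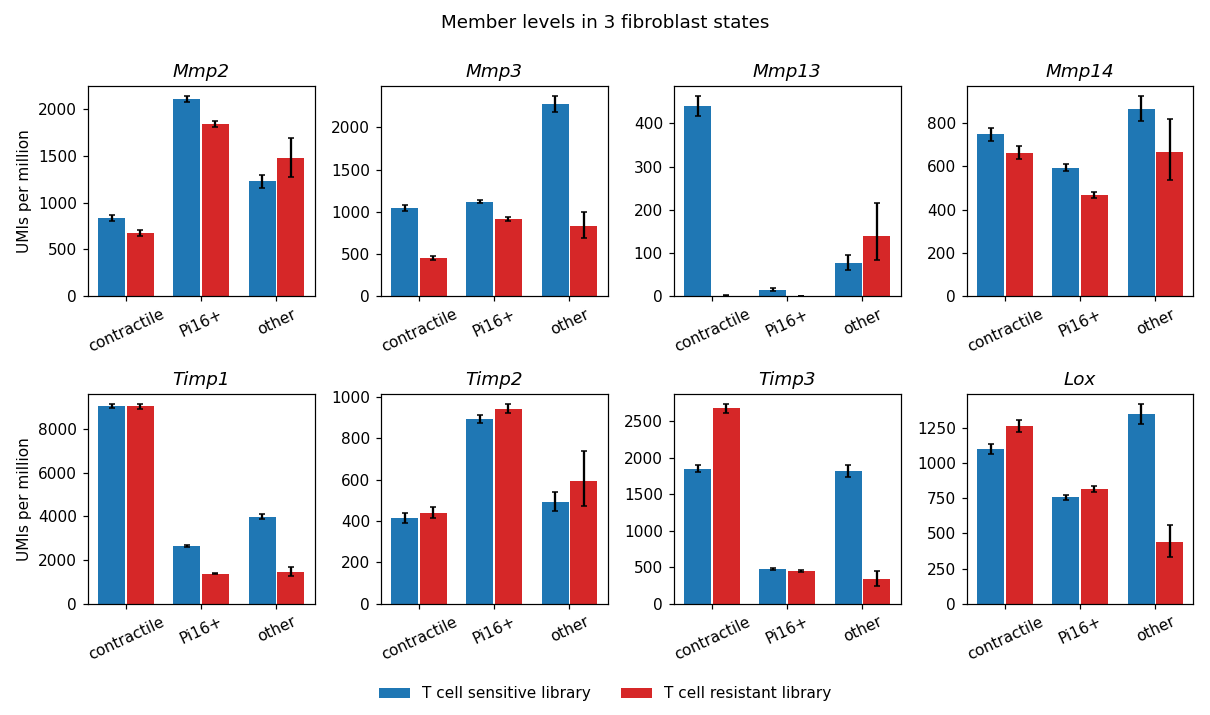
Level of 8 members (CPM, axis from 0) in contractile, Pi16+ and other fibroblasts of the T cell sensitive (blue) and resistant (red) libraries. Bars are 1 library each and error bars are exact Poisson 95% intervals. Timp1 is at 9055 and 9048 CPM in contractile cells and lower in Pi16+ cells.

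Ratios between the libraries are given for each state. In contractile cells Timp1 had a ratio of 1.00 (0.984 to 1.02), and in Pi16+ cells 1.91 (1.87 to 1.96). Mmp3 showed 2.32 (2.17 to 2.48) in contractile and 1.22 (1.19 to 1.26) in Pi16+ cells. For Timp3 the values were 0.690 (0.667 to 0.714) and 1.05 (1.01 to 1.10). With a cut of 5 UMIs of Acta2 and Tagln the Pi16+ value of Timp3 turned to 0.982 (0.940 to 1.03). Mmp13 gave 1436 UMIs in 97 contractile sensitive cells against 1 UMI in 74 resistant ones, with a UMI in 8 of the 97 and at least 10 UMIs in 4, and 129 against 1 UMI in Pi16+ cells. In the other fibroblasts, 68 sensitive against 10 resistant cells, Mmp13 was at 0.552 (0.330 to 0.967), a value that rests on 19 UMIs in 1 resistant cell, while Timp3 had a ratio of 5.45 (4.07 to 7.48), Lox 3.09 (2.39 to 4.08), Timp1 2.76 (2.39 to 3.20) and Mmp3 2.73 (2.26 to 3.32). With a cut of 1 or 5 UMIs of Acta2 and Tagln the contractile Mmp3 ratio was 1.89 to 2.44, the Pi16+ Timp1 ratio 1.67 to 2.15, and in the other fibroblasts Timp1 reached 8.09 and Timp3 17.9. The difference of ratios between states was not tested.

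Single fibroblasts differed widely in some members. The 10% of cells with most UMIs held 77.2% (sensitive) and 77.4% (resistant) of Timp1, 74.8% and 77.8% of Timp3, and 68.9% and 54.8% of Mmp3, but only 28.2% and 25.2% of Mmp2 and 25.3% and 26.5% of Timp2. With cells thinned to 5000 UMIs, which left 691 and 546 cells, the Timp1 share was 59.3% and 56.2% and that of Mmp2 24.9% and 22.6%. Mmp3 and Timp3 were the pair of the 7 commonly detected members least often found in the same cells relative to the product of their shares, a pair picked after the values were seen, while the other pairs lay at 0.988 to 1.06 of the product at full depth and at 0.979 to 1.04 in thinned cells. In the sensitive library 264 cells had both where the product of shares gives 315, and in the resistant library 215 where it gives 252. Thinned to 5000 UMIs the counts were 147 against 218 and 131 against 177.

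In macrophages 2 of the 5 members with at least 50 UMIs were past 2-fold higher in the sensitive library, Timp1 and Timp2, and 0 were past 2-fold lower. Among 6349 genes tested in this gate, 2.16% were past 2-fold higher and 0.725% lower. Timp1 stood at 146 CPM (309 UMIs) against 11.8 CPM (22 UMIs). The ratio was 12.4 (8.06 to 20.1), or 6.89 as a mean over single cells. Timp1 was seen in 50 of 185 and 14 of 156 macrophages. Timp2 stood at 397 against 171 CPM, 2.31 (2.03 to 2.64). The proteinases typical of macrophages were lower in the sensitive library, Mmp12 at 0.592 (0.567 to 0.619) and Mmp13 at 0.581 (0.516 to 0.653). Mmp14 had a ratio of 0.992 (0.870 to 1.13).

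Timp1, Timp2 and Mmp12 kept their direction within macrophage subsets, a split added after the values were seen, and Mmp13 did not. Cells with at least 2 of the genes C1qa, C1qb and C1qc, complement genes of mature macrophages, were 168 of 185 (90.8%) and 131 of 156 (84.0%). In them Timp1 had a ratio of 14.1 (8.56 to 25.1), Timp2 2.13 (1.86 to 2.43), Mmp12 0.628 (0.598 to 0.660) and Mmp13 0.536 (0.471 to 0.611). In the other 17 and 25 cells the ratios were 8.28, 3.92 and 0.680, and Mmp13 stood at 1.07 (0.803 to 1.42). Without the 5 cells with most UMIs, Timp1 was 14.4 and Mmp12 0.436.

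Fibroblast markers in the macrophage gate, which the gate itself limits, were higher in the sensitive library. The 8 markers summed to 35.1 CPM in sensitive and 18.7 CPM in resistant macrophages, with 1 and 0 markers at 0. Mmp2, a fibroblast member, was 6.63 and 12.3 CPM there, higher in the resistant library. Timp1 in T/NK cells was higher in the resistant library by level, 18.5 (sensitive) and 38.5 (resistant) CPM, but was found in more cells of the sensitive library, 120 of 2002 (5.99%) against 33 of 1900 (1.74%). The part of free RNA in the Timp1 result was not tested beyond these values.

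Cancer cells left after depletion had 1 of 5 tested members past 2-fold higher, Mmp13, and 0 lower, beside 1.35% and 0.753% of 7707 genes. Mmp13 stood at 55.8 CPM (137 UMIs in 15 of 100 cells) in the sensitive and 17.7 CPM (50 UMIs in 13 of 130 cells) in the resistant library. The ratio was 3.15 (2.26 to 4.44). One sensitive cell held 69 of the 137 UMIs. Without the cell with most UMIs in each library the ratio was 2.003 (1.33 to 3.05), and without 5 such cells 1.39 (0.647 to 3.06). Mmp3 had a ratio of 0.670 (0.524 to 0.853), and 0.830 (0.569 to 1.20) without 5 such cells. Timp1 stood at 1.21 (1.08 to 1.35, but 0.956 as a mean over single cells), Mmp14 at 1.11 (0.981 to 1.25) and Timp2 at 1.01 (0.878 to 1.15). In neutrophils 0 members reached 50 UMIs and no ratio is given, while 1.63% of 1782 genes were past 2-fold higher and 3.37% lower.

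Other genes of matrix proteolysis and crosslinking were taken from fixed lists. Of 61 listed genes 46 had at least 50 UMIs in fibroblasts, 6 were past 2-fold higher and 1 lower in the sensitive library, beside 3.05% and 1.04% of all genes tested in this gate, and the median ratio was 1.15. The stromelysin Mmp10 stood at 72.5 against 15.3 CPM, 4.74 (4.00 to 5.65), and the gelatinase Mmp9 at 55.5 against 15.9 CPM (3.496). Slpi, an inhibitor of serine proteases, stood at 212 against 58.2 CPM (3.63), the broad protease inhibitor A2m at 15.1 against 4.02 CPM (3.76), and Plau, the urokinase plasminogen activator, at 215 against 106 CPM (2.03). Adam8, a membrane metalloproteinase with 45 against 5 UMIs, was the sixth, and Ctss, a cathepsin of macrophages, was lower at 3.28 against 8.92 CPM (0.368). The cathepsins, inhibitors and lysyl oxidase that were named for their fibroblast counts stayed within 2-fold: Ctsl had a ratio of 1.22, Cst3 1.04, Serpina3n 1.30, Ctsb 1.24, Ctsk 1.39 and Loxl1 0.907.

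In macrophages 23 of the 61 listed genes were tested, 3 past 2-fold higher and 3 lower, beside 2.16% and 0.725% of all genes tested there, with a median ratio of 1.07. Among the higher were Slpi, at 1129 against 240.5 CPM (4.70), and the neutrophil serine protease Prtn3, at 63.0 against 21.96 CPM (2.87). Lower were Ctsk, a collagen-cleaving cathepsin, at 13.3 against 164 CPM (0.0810), the gelatinase Mmp9, at 99.5 against 329 CPM (0.303), and the neutrophil collagenase Mmp8, at 18.5 against 95.3 CPM (0.194). Neutrophil markers in macrophages summed to 290.5 (sensitive) and 221 (resistant) CPM, with 2 of 8 at 0 in each, and their part in the values of Mmp8, Mmp9 and Prtn3 was not tested. In cancer cells 22 were tested, 0 higher and 1 lower (Slpi, 0.477), beside 1.35% and 0.753% of all genes. In neutrophils 14 were tested, with 0 in either direction, beside 1.63% and 3.37%.

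In the control and resistant-labelled whole-tumor libraries Mmp2, Mmp3, Timp1, Timp3 and Lox again led in fibroblasts and Mmp12 and Mmp13 in macrophages, while Timp2 led in macrophages, as did Mmp14 in the resistant-labelled library (204 CPM against 95.6 CPM in fibroblasts). In the 7 control fibroblasts Timp1 stood at 5394 CPM, Lox at 2626 CPM, Mmp2 at 623 CPM, Mmp3 at 552 CPM and Timp3 at 536 CPM. The 5 resistant-labelled fibroblasts gave 3452, 2592, 681, 992 and 191 CPM for the same genes. Mmp12 and Mmp13 had 0 UMIs in both fibroblast sets, and led in macrophages at 663 and 265 CPM in control and 339 and 159.5 CPM in the resistant-labelled library. In control these values rested on 25 UMIs in 2 of 8 macrophages and 10 UMIs in 1 macrophage. In the resistant-labelled library they came from 7 and 4 of 31 macrophages. Timp2 was nearly level across fibroblasts, cancer cells and macrophages, at 237, 252 and 318 CPM in control and 299, 266 and 319 CPM in the resistant-labelled library. Without thinning it was seen in 23.6% of control and 24.1% of resistant-labelled neutrophils. After each cell was thinned to 500 UMIs the shares were 7.55% and 5.84%. Neutrophil markers summed to 1774 CPM in control fibroblasts and 872 CPM in resistant-labelled fibroblasts.

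Summed over all kept cells, Lox, Timp3, Timp1, Mmp2 and Mmp3 were low in the sensitive-labelled library, which had 0 fibroblast-gated cells. By level Mmp2 stood at 3.75 CPM there against 48.8 in control and 33.1 in the resistant-labelled library, Mmp3 at 9.38 against 49.4 and 67.9, and Timp1 at 26.3 against 502 and 281. Timp2 and Mmp14, which other lineages also hold, were closer, at 137 CPM against 188 and 233 and at 30.001 CPM against 56.7 and 73.8. In UMIs, from a library of fewer UMIs than the others, Lox gave 1 there, against 352 in control and 226 in the resistant-labelled library, Timp3 0 against 73 and 16, and Timp1 14 against 823 and 484. Fewer fibroblasts and less RNA per fibroblast cannot be told apart in these sums. Mmp12 was the reverse, with 274 UMIs against 44 and 154. Of these 274, 113 lay in 6 neutrophil-gated cells, 108 of them in 1 cell, and 161 in 4 cells outside every gate, 3 of which had at least 3 macrophage markers and held 155.

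Ratios between whole-tumor libraries were formed for members with at least 10 UMIs and gates with at least 5 cells in each library. In cancer cells Mmp13 was higher in the resistant-labelled than in the control library, 82.2 CPM (68 UMIs in 14 of 41 cells) against 10.1 CPM (5 UMIs in 3 of 24 cells), 8.16 (3.33 to 25.9). It was 1 of 5 members past 2-fold, beside 11.2% of 8235 genes higher and 5.82% lower. The other 4, Mmp3, Mmp14, Timp1 and Timp2, had ratios of 0.870 to 1.26 with intervals that included 1. As means over single cells Mmp3 was 2.39 and Timp1 2.09, both past 2-fold, so the count depends on the summary used. The Mmp13 ratio ran from 6.03 to 18.9 in the alternatives. In macrophages, with 31 against 8 cells, Mmp12 had a ratio of 0.512 (0.319 to 0.845), Mmp13 0.602 (0.289 to 1.37), Mmp14 3.86 (1.00 to 32.9) and Timp1 2.82 (0.434 to 119), the last from 15 against 1 UMI, so that 2 of 5 members were past 2-fold higher and 0 lower, beside 23.8% of 2914 genes higher and 8.79% lower. With markers counted from 2 UMIs the Mmp14 ratio was 1.35, with each cell given the most frequent gate of its Leiden cluster 1.51, and the Timp1 ratio turned to 0.451 with a margin of 1 marker, so neither call held. Without the cell with most UMIs the Mmp12 ratio was 2.01. By Leiden cluster it was 1.39, and the Mmp13 ratio turned to 1.22. In fibroblasts, with 5 against 7 cells, Timp3 (0.356) and Mmp14 (0.404) were past 2-fold lower and 0 of 7 members higher, beside 17.9% and 13.1% of 2439 genes. In the alternatives Timp3 reached at most 0.404 and Mmp14 at most 0.398. Without the cell with most UMIs Lox turned from 0.987 to 0.444 and Timp1 from 0.640 to 0.427. Mmp3 went from 1.80 to 0.987 as a mean over single cells, so this count is not stable.

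In whole-tumor neutrophils Mmp12 gave 113 UMIs in the sensitive-labelled library, 14 in control and 2 in the resistant-labelled library. The ratio was 13.3 (7.58 to 25.01) over control, beside 12.8% of 4744 genes higher and 8.03% lower, and 44.4 (12.0 to 371) over resistant-labelled, beside 10.2% of 3967 genes higher and 6.6% lower. The cell with most UMIs held 108 of the 113 in the sensitive-labelled library. In control it held 12 of the 14, and in the resistant-labelled library 1 of the 2. Without these cells the ratios were 4.10 over control and 3.93 over resistant-labelled. Both values rest on fewer than 10 UMIs and decide no direction. Across the 6 alternatives run, this removal included, the ratios ran from 4.05 to 89.7 over control and from 2.01 to 42.9 over resistant-labelled. Mmp13 gave 21 UMIs in 4 cells, against 0 in control and 1 in the resistant-labelled library. Timp2 stood at 142.5, 178 and 127 CPM in the sensitive-labelled, control and resistant-labelled libraries, with ratios whose intervals included 1. Between the resistant-labelled and control libraries Mmp12 was past 2-fold lower (0.299, 0.0330 to 1.30), beside 11.6% of 4511 genes higher and 10.2% lower. That value came from 2 against 14 UMIs, and 4 of 6 alternatives turned its direction, up to 9.06.

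**Figure D5:**
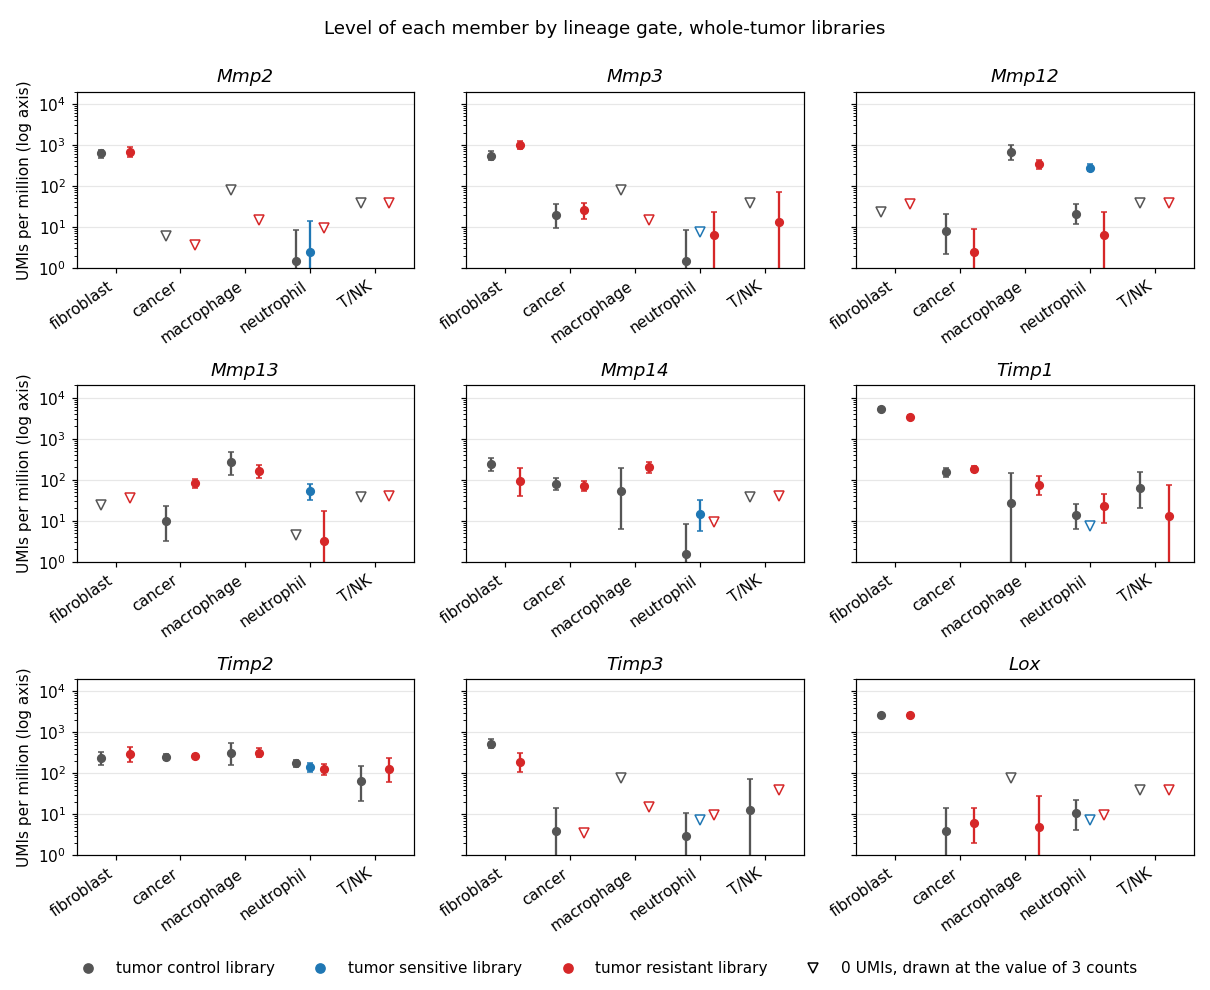
Level of each member (CPM, log axis) by lineage gate in the tumor control (grey), sensitive-labelled (blue) and resistant-labelled (red) libraries, for gates with at least 5 cells. Bars are exact Poisson 95% intervals, and open triangles are 0 UMIs drawn at the value of 3 counts. Timp1 and Lox lead in fibroblasts of the control and resistant-labelled libraries, and Timp2 is nearly level across fibroblasts, cancer cells and macrophages.

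The genes most like each member were found over 11 profiles, the lineage gates of the T cell libraries with at least 20 cells, as the highest Pearson correlations of log2(CPM + 10). For Lox they were Eln, Cd248 and Scn7a (0.9989 to 0.9996), and for Mmp2 Slc10a6, C4a and Pla2r1 (0.997). Mmp12 was most like C3ar1, Atp6v0d2 and C1qc (0.992 to 0.994). Mmp13 had the weakest likeness, to Plxnd1, Akap7 and Acp2 (0.890 to 0.924). For Timp1 they were Map3k6, Snx33 and Fkbp9 (0.963 to 0.970), for Timp2 Dstyk, Plod3 and Nt5dc2 (0.962 to 0.986), and for Timp3 Hoxb2, Ebf1 and Fkbp14 (0.996 to 0.997). Gates of 1 library share that library, so these values are descriptions.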

How the data were processed

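Reads were aligned by the authors to build mm10 with Cell Ranger (3.0.1 for whole tumor and 6.0.0 for T cell libraries, per the file headers) and deposited raw UMI counts per gene and cell barcode. These counts were used without further scaling by the authors. A barcode needed 500 or more detected genes and no more than 10% mitochondrial UMIs (T cell libraries), or 200 genes and 20% (whole tumor, where the median mitochondrial share was 0). In the T cell libraries the barcodes with the highest Scrublet scores, 0.8% per 1000 barcodes (101 sensitive, 85 resistant), were removed as putative doublets with scanpy 1.11.5. Doublets were not removed from the whole-tumor libraries.

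Lineage gates used 8 markers per lineage, none of them a member. CPM had exact Poisson intervals, ratios of CPM exact conditional binomial intervals, and shares Clopper-Pearson intervals at 95%, all covering counting error only. A count of 0 was read as allowing up to 3 counts. Ratios were called past 2-fold with at least 50 UMIs over both libraries (10 for whole tumor, in gates of at least 5 cells in each library, a limit set after the cell counts were known). The ratio script was tested on simulated data. Whole-tumor and T cell libraries list different features and were not compared with each other.

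All 9 members were named. Of 61 other listed genes, up to 6 past 2-fold per comparison with an interval that excludes 1, by UMIs, and the 6 with the highest fibroblast level were named; Adam8 and the cancer value of Slpi were named after their values were seen. One gene that the rule names is not reported here. The members and lists were chosen with earlier results of these data known. Alternatives were other gates, no doublet or mitochondrial filter, scaling by the median ratio, means over cells, and leaving out the top cells.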

Additional observations from a re-analysis of the deposited data

Results flagged for a closer look

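Members that lay above 1 in one lineage and below 1 in another, each with an interval that excluded 1, are listed here for the T cell sensitive over resistant comparison. The difference between lineages was not tested. Mmp13 had a ratio of 60.8 in fibroblasts and 3.15 in cancer cells, and 0.581 in macrophages. Mmp3 had a ratio of 1.499 in fibroblasts and 0.670 in cancer cells. Without the 5 cells with most UMIs in each library both cancer intervals included 1. Mmp3 was then 0.830 (0.569 to 1.20) and Mmp13 1.39 (0.647 to 3.06). Timp2 had a ratio of 0.921 in fibroblasts and 2.31 in macrophages.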

How the results depend on the processing

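No paired analysis was possible because each group had 1 library. With no doublet removal, and without the cell with most UMIs, 1 member (Mmp12) in place of 0 was past 2-fold lower in sensitive fibroblasts. Without that cell 12 and 23 UMIs were left, fewer than the 50 that a call otherwise needed. With gates by Leiden cluster, 5 members in place of 0 were highest in the fibroblast gate of the tumor sensitive library. That gate held 5 cells. All kept cells of this library gave 2 UMIs of Mmp2, 5 of Mmp3, 14 of Timp1, 0 of Timp3 and 1 of Lox, so this count rests on few UMIs. The other 84 of 87 recomputed counts of members kept within 1.5 times. For the resistant-labelled over control library, Timp1 in macrophages turned from 2.82 to 0.451 with a margin of 1 marker and 0.526 by cluster, and Mmp12 in neutrophils from 0.299 to 9.06 with a margin of 1 marker, 7.005 with at least 2 UMIs per marker, 2.01 by cluster and 1.05 without the cell with most UMIs; both rest on 16 UMIs and the cause was not tested. In the T cell libraries the Mmp13 fibroblast ratio ran from 8.80 to 361 where it could be formed. Without the 5 cells with most UMIs in each library 144 against 0 UMIs were left, and no finite ratio exists. Timp1 in macrophages ran from 6.89 to 16.7, Timp2 in macrophages from 2.13 to 3.92 and Mmp12 in macrophages from 0.436 to 0.680. These 3 macrophage ranges include the C1q split and the removal of 5 cells (chosen after seeing the data). Depth limits neutrophils, where 0 members reached 50 UMIs in the T cell libraries.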
